A study of Mus musculus with 2 samples.

Results

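Pure Myh1 nuclei are muscle fibre nuclei whose adult myosin heavy chain transcripts are almost all Myh1, the heavy chain of type 2X fibres. They were chosen as nuclei with 10 or more unique molecular identifiers (UMIs, each standing for 1 captured RNA molecule) summed over Myh1, Myh2, Myh4 and Myh7. At least 80% of these UMIs had to be Myh1, and nuclei with 3 or more UMIs of Col22a1, a collagen gene of the myotendinous junction, were left out. Of 16530 nuclei, 474 met the rule, 399 of them in plantaris and 75 in gastrocnemius. The same cuts gave 3199 pure Myh4 nuclei in plantaris and 3350 in gastrocnemius, and 185 and 72 pure Myh2 nuclei in plantaris and gastrocnemius, against which the pure Myh1 nuclei are set within each muscle. The level of Myh1, Myh2, Myh4, Myh7 and Col22a1 therefore chose the nuclei and is not a finding.

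The nuclei came from plantaris and gastrocnemius, neighbouring calf muscles, of wild-type C57BL/6 mice aged 12 weeks, with no treatment named in the labels. Each muscle gave 1 library made from minced, homogenised tissue, whose nuclei were stained with propidium iodide, a DNA dye, and sorted. The sources used here do not state how many mice of which sex were used, or whether both muscles came from the same animals. Plantaris held 29248275 UMIs in 9156 nuclei and gastrocnemius 19048595 in 7374, with medians of 2714 UMIs per nucleus in plantaris and 2260 in gastrocnemius. The 2 libraries shared 17 barcode sequences, 2 of them with a pure Myh1 nucleus.

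Adult mouse limb fibres are typed by their myosin heavy chain. Type 2B fibres carry Myh4 and are the fastest and most glycolytic, type 2A fibres carry Myh2 and are fast and rich in mitochondria, and type 1 fibres carry Myh7 and are slow. Type 2X fibres carry Myh1 and are usually placed between types 2A and 2B in speed and in oxidative capacity. The genes for the 3 fast chains lie side by side in a cluster on chromosome 11, and most fibres use mainly a single one of them.

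The 3 promoters are shown because the choice among them is what defines the nucleus classes. They come from RefSeq on build GRCm38.p6, on the plus strand, from 250 bases before to 50 bases after the annotated start of each gene. Capitals mark a run of 20 bases that all 3 share and each TATAAA motif.
Myh1, chr11:67199852-67200151: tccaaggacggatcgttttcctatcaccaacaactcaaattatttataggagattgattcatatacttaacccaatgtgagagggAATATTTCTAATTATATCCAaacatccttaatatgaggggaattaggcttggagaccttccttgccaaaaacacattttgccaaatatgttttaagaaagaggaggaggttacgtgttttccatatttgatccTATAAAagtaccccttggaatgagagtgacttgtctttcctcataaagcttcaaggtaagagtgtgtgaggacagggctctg
Myh4, chr11:67237562-67237861: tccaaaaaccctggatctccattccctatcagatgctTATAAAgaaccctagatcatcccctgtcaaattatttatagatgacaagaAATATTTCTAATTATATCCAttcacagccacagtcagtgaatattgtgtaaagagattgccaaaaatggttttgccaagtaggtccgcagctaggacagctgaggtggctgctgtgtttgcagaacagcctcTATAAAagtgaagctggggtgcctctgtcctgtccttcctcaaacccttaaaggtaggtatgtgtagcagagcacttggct
Myh2, chr11:67170777-67171076: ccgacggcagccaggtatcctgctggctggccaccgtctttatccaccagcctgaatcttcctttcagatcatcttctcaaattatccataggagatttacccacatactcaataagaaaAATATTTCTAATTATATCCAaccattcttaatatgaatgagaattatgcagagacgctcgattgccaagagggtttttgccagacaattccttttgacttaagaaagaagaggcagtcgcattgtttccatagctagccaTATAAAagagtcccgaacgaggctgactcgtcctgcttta
The shared run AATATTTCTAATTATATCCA begins 165 bases before the start in Myh1, 163 before it in Myh4 and 130 before it in Myh2. On both strands it was found in 3 of 27025 promoter windows of this length, or 0.0111%. TATAAA lies 32 bases before the start in Myh1, 213 and 31 before it in Myh4, and 10 after the annotated start in Myh2, and 15.7% of all windows hold it on either strand. These matches describe the letters of the windows, and no binding was measured here.

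Within the pure Myh1 nuclei, Myh1 supplied 94.73% of Myh UMIs in plantaris and 93.64% in gastrocnemius. Nearly all of the rest was Myh4, at 4.647% in plantaris and 5.724% in gastrocnemius, while Myh2 gave 0.6276% in plantaris and 0.5654% in gastrocnemius. Nuclei with Myh1 alone numbered 153 in plantaris and 22 in gastrocnemius. The median nucleus held 17 Myh UMIs in both muscles, and 3940 UMIs in all in plantaris against 3186 in gastrocnemius. Depth was similar in the other classes, with medians of 3995 UMIs in plantaris and 3435 in gastrocnemius pure Myh4 nuclei, and 3708 and 3302 in pure Myh2 nuclei of plantaris and gastrocnemius. Purity differed. In pure Myh2 nuclei, Myh1 gave 10.1% of Myh UMIs in plantaris and 6.391% in gastrocnemius, against 1.171% and 0.4761% in pure Myh4 nuclei. Nuclei with Myh2 alone numbered 21 of 185 in plantaris and 5 of 72 in gastrocnemius. Those with Myh4 alone numbered 2472 of 3199 in plantaris and 2974 of 3350 in gastrocnemius.

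The label was checked against markers. All 8 myonuclear markers (Ttn, Neb, Ckm, Ryr1, Acta1, Mybpc1, Trdn and Dmd) were detected in the pure Myh1 nuclei of both muscles, at a summed 75615 CPM in plantaris and 87349 CPM in gastrocnemius, where CPM is UMIs per 1000000 of the summed UMIs of a class in a library. Pure Myh4 nuclei held 81110 CPM in plantaris and 94644 CPM in gastrocnemius. The 7 mesenchymal markers, among them Pdgfra and Dcn, summed to 131.5 CPM in plantaris and 81.42 CPM in gastrocnemius pure Myh1 nuclei, with Lum and Dpp4 at 0 in gastrocnemius. Nuclei with 5 or more UMIs of these mesenchymal markers held 2662 CPM in plantaris and 3718 CPM in gastrocnemius. Adipocyte markers gave 0 UMIs in pure Myh1 nuclei, endothelial markers 16 in plantaris and 0 in gastrocnemius, and spindle fibre markers 13 in plantaris and 0 in gastrocnemius. Pericyte and smooth muscle markers gave 598 UMIs in plantaris and 43 in gastrocnemius, Abcc9 giving 516 and 41 of them. Muscle stem cell, macrophage, tenocyte and Schwann markers gave 40, 30, 30 and 15 UMIs in plantaris and 3, 18, 5 and 9 in gastrocnemius. Myotendinous junction markers held 628.5 CPM in plantaris and 411.2 CPM in gastrocnemius. At least 3 UMIs of markers of other cell types were seen in 106 plantaris and 9 gastrocnemius nuclei, 29 and 6 without Abcc9. Of 10 neuromuscular junction markers, 9 were detected in plantaris (Chrna1 at 0) and 5 in gastrocnemius (Chrne, Chrna1, Colq, Etv5 and Etv4 at 0). At least 3 UMIs of them were seen in 58 plantaris and 6 gastrocnemius nuclei, and at least 3 UMIs of the 7 left without Musk, Lrp4 and Vav3 in 9 plantaris and 0 gastrocnemius nuclei. Musk alone was seen in 34.84% of plantaris and 42.67% of gastrocnemius pure Myh1 nuclei. Values without junction nuclei are given below for some genes. Other differences, such as Maf over pure Myh2 and Kcnj12 over pure Myh4 nuclei, were not called without them in the tests described below.

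Myh UMIs were also present in nuclei with mesenchymal markers, and the part of free RNA and of doublets in this was not tested. These nuclei held 6.036 Myh UMIs each in plantaris and 3.642 in gastrocnemius, of which Myh1 was 15.89% in plantaris and 1.9% in gastrocnemius. Of 1078 such nuclei in plantaris and 578 in gastrocnemius, 209 and 58 held 10 or more Myh UMIs and 15 and 1 met the pure Myh1 rule.

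Pure Myh1 nuclei made up 4.358% of plantaris nuclei (95% exact binomial interval 3.949 to 4.796) and 1.017% of gastrocnemius nuclei (0.8008 to 1.273). Of nuclei with 10 or more Myh UMIs, 8.993% of 4437 in plantaris and 2.055% of 3649 in gastrocnemius were pure Myh1. With each nucleus thinned to 1000 UMIs and the same cuts, the shares were 0.2473% in plantaris (0.1511 to 0.3817) and 0.1908% in gastrocnemius (0.09862 to 0.333), on 20 and 12 nuclei, with overlapping intervals. With 3 or more Myh UMIs required of the thinned nuclei, a minimum chosen after seeing the data, they were 4.934% in plantaris (4.473 to 5.429) and 1.335% in gastrocnemius (1.067 to 1.651). With 1 library per muscle, none of these differences has a replicate check, and these intervals, like those of ratios between muscles, cover counting error only.

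The transcripts that mark the class besides Myh1 are Esrrb, Prune2 and Dach2. They were picked from these data, so their levels are given as a description without a test. Esrrb, at chr12:86361117-86521628 on mm10, encodes an orphan nuclear receptor of the oestrogen-related family, whose members drive genes of mitochondrial metabolism. It had 43.04 CPM in plantaris and 40.7 CPM in gastrocnemius in pure Myh1 nuclei, against 3.28 CPM in plantaris and 1.64 CPM in gastrocnemius in pure Myh4 nuclei. In pure Myh2 nuclei it reached 169.9 CPM in plantaris and 188 CPM in gastrocnemius. Esrrb thus stood 13.1-fold above pure Myh4 nuclei in plantaris and 24.8-fold above them in gastrocnemius, while it was 3.95-fold and 4.61-fold lower than in pure Myh2 nuclei of plantaris and gastrocnemius.

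Prune2, at chr19:16956118-17223932, encodes a BCH domain protein. Its level was 185 CPM in plantaris and 183 CPM in gastrocnemius in pure Myh1 nuclei, against 13.7 CPM in plantaris and 5.01 CPM in gastrocnemius in pure Myh4 nuclei and 387 CPM in plantaris and 301 CPM in gastrocnemius in pure Myh2 nuclei. Dach2, at chrX:113297510-113836386, encodes a transcription factor of the dachshund family that represses myogenin in muscle. It stood at 69.6 CPM in plantaris and 118 CPM in gastrocnemius in pure Myh1 nuclei, against 3.56 CPM in plantaris and 3.86 CPM in gastrocnemius in pure Myh4 nuclei. Pure Myh2 nuclei held 78.01 CPM in plantaris and 58.6 CPM in gastrocnemius, so the marker set separates pure Myh1 from pure Myh4 nuclei and not from pure Myh2 nuclei. One gastrocnemius nucleus gave 12 of the 29 Dach2 UMIs there, and without it the level was 70.6 CPM.

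Seen nucleus by nucleus, an Esrrb UMI was present in 12.5% of plantaris and 13.3% of gastrocnemius pure Myh1 nuclei, against 1.22% and 0.537% of pure Myh4 nuclei of plantaris and gastrocnemius. The mesenchymal nuclei, which should lack muscle transcripts, had one in 3.62% in plantaris and 0.692% in gastrocnemius, at median depths of 2400 UMIs in plantaris and 1750 in gastrocnemius. For Prune2 the shares were 27.3% in plantaris and 20% in gastrocnemius pure Myh1 nuclei, against 3.5% and 1.19% of pure Myh4 nuclei and 7.88% and 1.56% of mesenchymal nuclei in plantaris and gastrocnemius. The shares in pure Myh4 nuclei lie below those in mesenchymal nuclei for both genes, and the part of background in them was not tested. Among the mesenchymal nuclei, 15 in plantaris and 1 in gastrocnemius themselves met the pure Myh1 rule. Most pure Myh1 nuclei held no UMI of any single one of these markers at this depth.

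Nuclei just inside the 80% cut, with 80 to 90% Myh1, numbered 78 in plantaris and 18 in gastrocnemius, and nuclei just outside, with 60 to 80%, numbered 102 and 13 in plantaris and gastrocnemius. Prune2 had 173 CPM in plantaris and 130 CPM in gastrocnemius just inside the cut, against 189.7 CPM and 332.1 CPM just outside it in plantaris and gastrocnemius. Esrrb had 31.45 CPM in plantaris and 74.26 CPM in gastrocnemius just inside, against 70.89 CPM and 58.61 CPM just outside in plantaris and gastrocnemius. Dach2 had 53.46 CPM in plantaris and 241.3 CPM in gastrocnemius just inside, against 58.38 CPM and 19.54 CPM just outside in plantaris and gastrocnemius. The gastrocnemius values rest on 17 or fewer UMIs each, and the 3 markers did not run the same way across the cut in gastrocnemius. Mybpc2, the fast isoform of myosin-binding protein C, had 349.1 CPM in plantaris and 185.6 CPM in gastrocnemius just inside, against 444.1 CPM and 254 CPM just outside in plantaris and gastrocnemius.

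Against pure Myh4 nuclei, pure Myh1 nuclei held more RNA of the stretch-responsive gene Ankrd2, the fatty acid genes Cd36 and Ppara and the LIM domain genes Pdlim1 and Lmcd1, and less of Ryr3, Slc2a3 and Actr3b. UMIs were summed per class and library and compared with edgeR's quasi-likelihood test with a term for library, and a gene was called at an adjusted p (Benjamini-Hochberg over all genes tested) below 0.05. Of 12298 genes tested, leaving out the rule's own genes, 505 were higher (4.11%) and 449 lower (3.65%), with a median log2 fold change of -0.10 over all of them. The test rests on 1 sum per class in each of 2 libraries with 2 residual degrees of freedom. Because the fit has a term for library, the p-values measure only how alike the class differences were in these 2 samples. The labels do not say that the libraries came from separate mice.

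Ankrd2, at chr19:42036000-42045110, encodes an ankyrin repeat protein of the sarcomeric I-band that responds to stretch. It had 48.3 CPM in plantaris and 769 CPM in gastrocnemius in pure Myh1 nuclei, against 2.995 CPM in plantaris and 10.4 CPM in gastrocnemius in pure Myh4 nuclei. Ankrd2 was higher by 5.25 on the log2 scale (edgeR adjusted p = 1.04e-68), and its level in gastrocnemius was far above that in plantaris. Cd36, the fatty acid carrier of the fibre membrane, had 834 CPM in plantaris and 1779 CPM in gastrocnemius, against 65.2 CPM in plantaris and 73.2 CPM in gastrocnemius in pure Myh4 nuclei. That is 12.8-fold in plantaris and 24.3-fold in gastrocnemius (log2 4.07, edgeR adjusted p = 7.27e-48).

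Ppara encodes the nuclear receptor for fatty acids that switches on fatty acid oxidation genes. Its level was 958 CPM in plantaris and 716 CPM in gastrocnemius in pure Myh1 nuclei, against 83 CPM in plantaris and 30.9 CPM in gastrocnemius in pure Myh4 nuclei (log2 3.94, edgeR adjusted p = 7.36e-46). Nceh1, a neutral cholesterol ester hydrolase, had 106 CPM in plantaris and 183 CPM in gastrocnemius, against 11.3 CPM in plantaris and 8.38 CPM in gastrocnemius in pure Myh4 nuclei (log2 3.71, edgeR adjusted p = 6.28e-40). For both genes the lower pure Myh1 value exceeded the higher pure Myh4 value several times over.

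The LIM domain genes Pdlim1, an adaptor that binds alpha-actinin at the Z-disc, and Lmcd1, a transcriptional cofactor, were higher as well. Pdlim1 had 178 CPM in plantaris and 85.5 CPM in gastrocnemius, against 13.4 CPM in plantaris and 1.97 CPM in gastrocnemius in pure Myh4 nuclei (log2 4.22, edgeR adjusted p = 2.30e-42). Lmcd1 had 190.4 CPM in plantaris and 692 CPM in gastrocnemius, against 24.9 CPM in plantaris and 19.6 CPM in gastrocnemius in pure Myh4 nuclei (log2 4.0, edgeR adjusted p = 9.64e-49). The highest of the named set also held 4 genes without a described role, the antisense RNA gene 4831440D22Rik (log2 5.14), Gm28653 (4.63), Gm12724 (4.59) and Gm41757 (3.86). Whether counting used strand is not given, so reads of an antisense gene and of the gene it overlaps cannot be told apart.

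**Figure D1:**
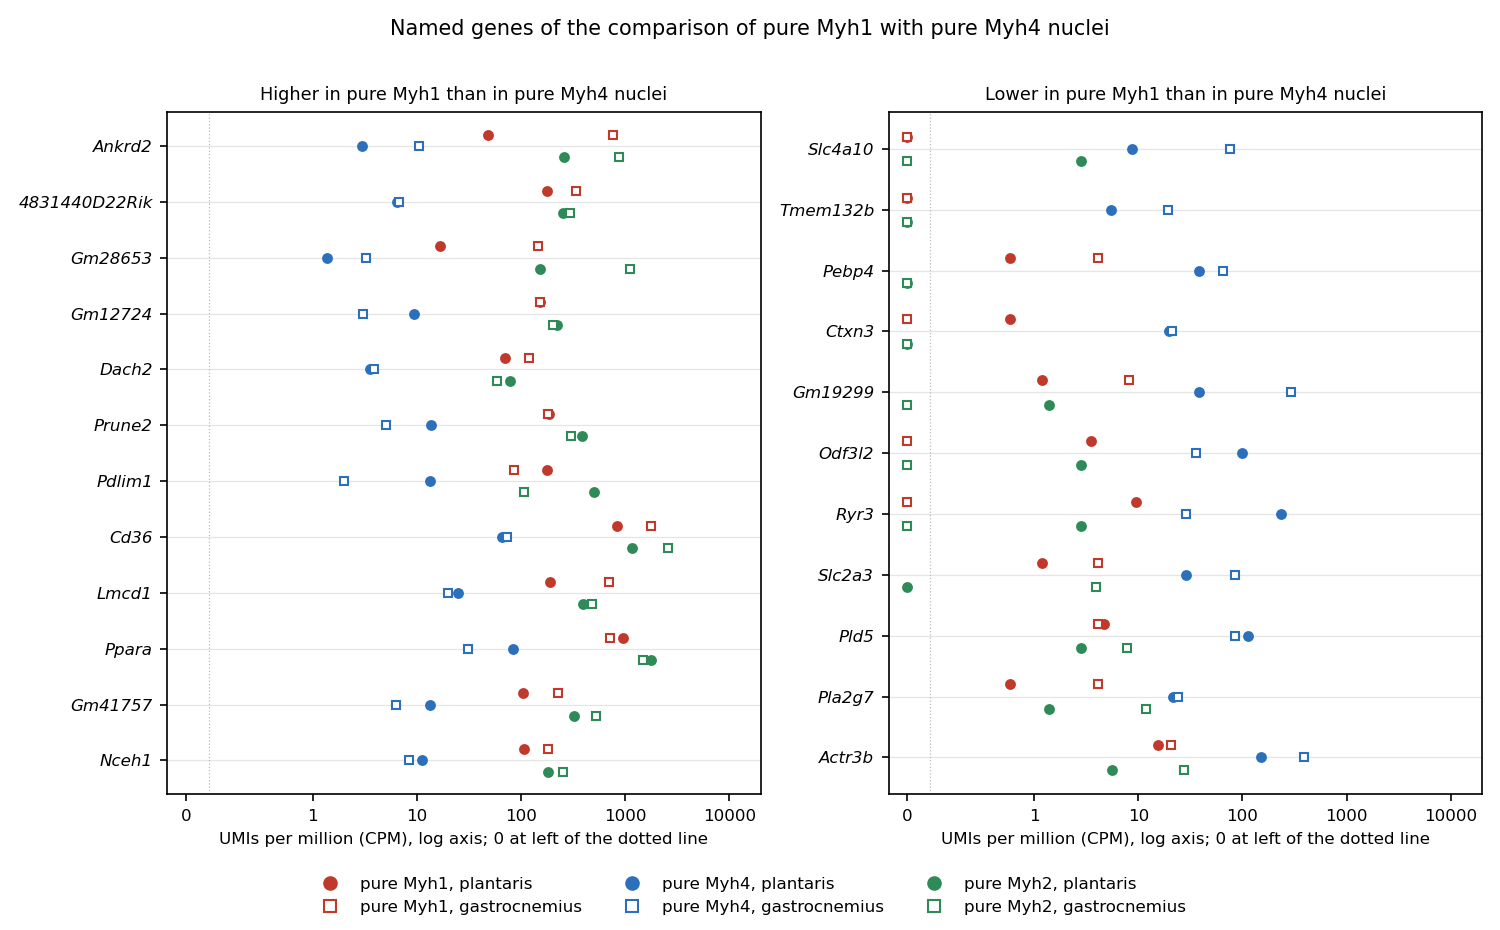
CPM (horizontal, log axis with 0 drawn at the left) of the named genes with the largest increases and the largest decreases in pure Myh1 over pure Myh4 nuclei, Dach2 and Prune2 among them as description. Each class has 1 point per muscle, filled for plantaris and open for gastrocnemius; in the left panel the red pure Myh1 points lie near the green pure Myh2 points for most genes, and in the right panel both lie far below the blue pure Myh4 points.

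Some genes were at or near 0 in pure Myh1 nuclei. Slc4a10, a sodium bicarbonate transporter, gave 0 UMIs in plantaris and 0 in gastrocnemius in pure Myh1 nuclei, against 123 UMIs in plantaris and 914 in gastrocnemius in pure Myh4 nuclei. With a floor of 3 counts per library this is at least 4.96-fold lower in plantaris and at least 6.15-fold lower in gastrocnemius (edgeR adjusted p = 7.01e-11), a call that DESeq2 did not make. Tmem132b gave 0 UMIs in plantaris and 0 in gastrocnemius, against 77 UMIs in plantaris and 235 in gastrocnemius in pure Myh4 nuclei (edgeR adjusted p = 5.35e-04). The Tmem132b call was lost in 2 of 13 alternative settings. Both genes are thus not detectable in pure Myh1 nuclei at this depth. Like the decreases below with few UMIs in pure Myh1 nuclei, both passed the count filter through pure Myh4 nuclei. Their p-values therefore rest on the class in which they are high.

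Ryr3, a ryanodine receptor calcium channel, gave 16 UMIs in plantaris and 0 in gastrocnemius in pure Myh1 nuclei, against 3276 UMIs in plantaris and 348 in gastrocnemius in pure Myh4 nuclei (log2 -4.62, edgeR adjusted p = 2.82e-27). Slc2a3, the glucose transporter GLUT3, gave 2 UMIs in plantaris and 1 in gastrocnemius, against 404 UMIs in plantaris and 1036 in gastrocnemius in pure Myh4 nuclei (log2 -4.53, edgeR adjusted p = 1.90e-14). Both were lower in both muscles.

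The other decreases named were of Pebp4 (-5.27), Ctxn3 (-5.18), Gm19299 (-5.15), Odf3l2 (-4.85), Pld5 (-4.51) and Pla2g7 (-4.25), with 9 or fewer UMIs each in pure Myh1 nuclei of both muscles together. Actr3b, a relative of the actin-branching protein Arp3, was better counted. It had 15.3 CPM in plantaris and 20.4 CPM in gastrocnemius in pure Myh1 nuclei, against 149.8 CPM in plantaris and 393 CPM in gastrocnemius in pure Myh4 nuclei, 9.77-fold lower in plantaris and 19.3-fold lower in gastrocnemius (log2 -3.58, edgeR adjusted p = 1.28e-28).

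Against pure Myh2 nuclei, pure Myh1 nuclei held more RNA of the fast contractile genes Mybpc2 and Myom2 and of Mylk4, and less of Myoz2, Ldhb and Idh2. Of 12298 genes, 76 were higher (0.618%) and 73 lower (0.594%) by edgeR's quasi-likelihood test, with a median log2 fold change of 0.03. Pure Myh2 nuclei number 257 and pure Myh4 nuclei 6549, so the sums behind this comparison are smaller, and both comparisons use the same pure Myh1 sums. Pure Myh2 nuclei also held more Myh1 than pure Myh4 nuclei did, at 10.1% of Myh UMIs in plantaris and 6.391% in gastrocnemius.

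Mybpc2, which binds myosin in fast fibres, had 308 CPM in plantaris and 179 CPM in gastrocnemius in pure Myh1 nuclei, against 41.8 CPM in plantaris and 35.2 CPM in gastrocnemius in pure Myh2 nuclei. It was 7.38-fold higher in plantaris and 5.09-fold higher in gastrocnemius (log2 2.7, edgeR adjusted p = 3.93e-14). Pure Myh4 nuclei held 1041 CPM in plantaris and 1266 CPM in gastrocnemius, and against them Mybpc2 was lower by a log2 fold change of -2.27 (edgeR adjusted p = 4.94e-17). Its level in pure Myh1 nuclei thus lay between those of the other classes in both muscles.

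Myom2, the M-protein that links thick filaments in the M-band of fast fibres, had 247 CPM in plantaris and 607 CPM in gastrocnemius in pure Myh1 nuclei, against 18.1 CPM in plantaris and 176 CPM in gastrocnemius in pure Myh2 nuclei (log2 2.56, edgeR adjusted p = 1.91e-15). Mylk4, a kinase of the myosin light chain kinase family, had 1423 CPM in plantaris and 4226 CPM in gastrocnemius, against 313 CPM in plantaris and 813 CPM in gastrocnemius in pure Myh2 nuclei (log2 2.31, edgeR adjusted p = 1.81e-13). Against pure Myh4 nuclei, Mylk4 was lower (log2 -1.62, edgeR adjusted p = 6.57e-08). For Myom2 the difference from pure Myh4 nuclei had a log2 value of -0.66 and an edgeR adjusted p = 0.0576, which missed the threshold.

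Outside the sarcomere, the transcription factor gene Trp63 (p63) had 399 CPM in plantaris and 419 CPM in gastrocnemius in pure Myh1 nuclei, against 113 CPM in plantaris and 66.5 CPM in gastrocnemius in pure Myh2 nuclei (log2 2.15, edgeR adjusted p = 1.94e-11). Tbc1d1, a Rab GTPase-activating protein that governs glucose transporter traffic, had 1039 CPM in plantaris and 1099 CPM in gastrocnemius, against 515 CPM in plantaris and 219 CPM in gastrocnemius in pure Myh2 nuclei (log2 1.55, edgeR adjusted p = 5.31e-07). Gpt2, the mitochondrial alanine aminotransferase, had 150.3 CPM in plantaris and 126 CPM in gastrocnemius, against 47.4 CPM in plantaris and 43.01 CPM in gastrocnemius in pure Myh2 nuclei (log2 1.64, edgeR adjusted p = 4.87e-05). Each of the 3 was higher in both muscles.

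Also higher were Asb4, an adaptor of ubiquitin ligases (log2 2.21), the complement regulator Cd55 (2.01), 4930402D18Rik (1.52) and the spermine oxidase Smox (1.51). The Smox call was lost in 7 of 14 alternative settings, while Smox was lower than in pure Myh4 nuclei by a log2 fold change of -2.79 (edgeR adjusted p = 4.87e-23).

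Among the decreases, Myoz2 encodes calsarcin-1, a calcineurin-binding Z-disc protein of slow and oxidative fibres. It had 37.1 CPM in plantaris and 65.1 CPM in gastrocnemius in pure Myh1 nuclei, against 448 CPM in plantaris and 993 CPM in gastrocnemius in pure Myh2 nuclei, 12.1-fold lower in plantaris and 15.2-fold lower in gastrocnemius (log2 -3.76, edgeR adjusted p = 2.06e-35). Pure Myh4 nuclei held 2.14 CPM in plantaris and 1.56 CPM in gastrocnemius, below the pure Myh1 level (log2 4.61, edgeR adjusted p = 1.80e-38). Ldhb, the heart-type subunit of lactate dehydrogenase, had 30.7 CPM in plantaris and 24.4 CPM in gastrocnemius, against 119.8 CPM in plantaris and 199 CPM in gastrocnemius in pure Myh2 nuclei (log2 -2.31, edgeR adjusted p = 3.94e-09).

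Idh2, the mitochondrial isocitrate dehydrogenase that uses NADP, had 81.95 CPM in plantaris and 77.3 CPM in gastrocnemius in pure Myh1 nuclei, against 316 CPM in plantaris and 356 CPM in gastrocnemius in pure Myh2 nuclei (log2 -2.04, edgeR adjusted p = 7.59e-11). The long non-coding RNA Sox2ot had 25.4 CPM in plantaris and 32.6 CPM in gastrocnemius, against 242 CPM in plantaris and 872 CPM in gastrocnemius in pure Myh2 nuclei (log2 -3.87, edgeR adjusted p = 3.90e-34). A Sox2ot UMI was seen in 36 of 185 plantaris and 36 of 72 gastrocnemius pure Myh2 nuclei, so these levels came from part of the class. Fam129a fell unevenly, by 1.71-fold in plantaris and 8.64-fold in gastrocnemius (edgeR adjusted p = 1.25e-08). The remaining named decreases were of 4930511M06Rik (log2 -4.44, on 3 UMIs and 1 UMI in pure Myh1 nuclei), Pcp4l1 (-3.55), Gm28653 (-3.04), Gm5427 (-2.68), Nkain2 (-2.47) and the non-coding Rmst (-2.31). Of the 8 Rmst UMIs in gastrocnemius pure Myh1 nuclei, 7 came from 1 nucleus.

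Genes higher in pure Myh1 nuclei than in both other classes numbered 6 by edgeR, with 28 at an unadjusted p below 0.05 and 1 by DESeq2. By edgeR 0 were lower than in both, with 30 at an unadjusted p below 0.05 and 0 by DESeq2. Kctd16, an auxiliary subunit of GABA-B receptors, had 270 CPM in plantaris and 297 CPM in gastrocnemius in pure Myh1 nuclei. Pure Myh4 nuclei held 54.6 CPM in plantaris and 27.04 CPM in gastrocnemius, and pure Myh2 nuclei 97.5 CPM in plantaris and 89.9 CPM in gastrocnemius. Kctd16 was higher by 2.77 over pure Myh4 nuclei (edgeR adjusted p = 1.08e-26) and by 1.61 over pure Myh2 nuclei (edgeR adjusted p = 2.92e-06) on the log2 scale, and its pure Myh1 level was the highest of the 3 classes in both muscles. It kept its call in 14 of 14 alternative settings over pure Myh4 nuclei and in 13 of 14 over pure Myh2 nuclei. Within the nuclei of 60 to 80% Myh1, just outside the cut, Kctd16 had 187.7 CPM in plantaris and 58.61 CPM in gastrocnemius.

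Nr4a3, an orphan nuclear receptor of the immediate early class, had 399.7 CPM in plantaris and 122 CPM in gastrocnemius in pure Myh1 nuclei, against 53.5 CPM in plantaris and 7.23 CPM in gastrocnemius in pure Myh4 nuclei and 131 CPM in plantaris and 0 CPM in gastrocnemius in pure Myh2 nuclei. It was called over pure Myh4 nuclei (log2 3.28, edgeR adjusted p = 2.21e-30) and over pure Myh2 nuclei (2.09, edgeR adjusted p = 8.02e-09). DESeq2 made neither call (adjusted p = 0.128 over pure Myh4 and 0.651 over pure Myh2 nuclei). In plantaris 185 pure Myh1 nuclei held Nr4a3, whereas in gastrocnemius 4 nuclei did and 1 of them gave 23 of its 30 UMIs. Without that nucleus the gastrocnemius level was 29.37 CPM.

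Flnc, the muscle filamin that crosslinks actin at the Z-disc, had 364 CPM in plantaris and 708 CPM in gastrocnemius in pure Myh1 nuclei, against 185 CPM in plantaris and 98.5 CPM in gastrocnemius in pure Myh4 nuclei (log2 1.83, edgeR adjusted p = 3.16e-12). Over the 247 CPM in plantaris and 278 CPM in gastrocnemius of pure Myh2 nuclei its log2 fold change was 1.0 (edgeR adjusted p = 0.00817). The other 3 were 1700027J07Rik (1.15 over pure Myh4 and 1.3 over pure Myh2 nuclei), Plcl1, a phospholipase C relative without that enzyme's activity (0.72 and 0.95), and the cyclic nucleotide phosphodiesterase Pde10a (0.7 and 1.42). Plcl1 lost its call over pure Myh4 nuclei in 5 and over pure Myh2 nuclei in 8 of 14 alternative settings, and Pde10a over pure Myh4 nuclei in 6.

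**Figure D2:**
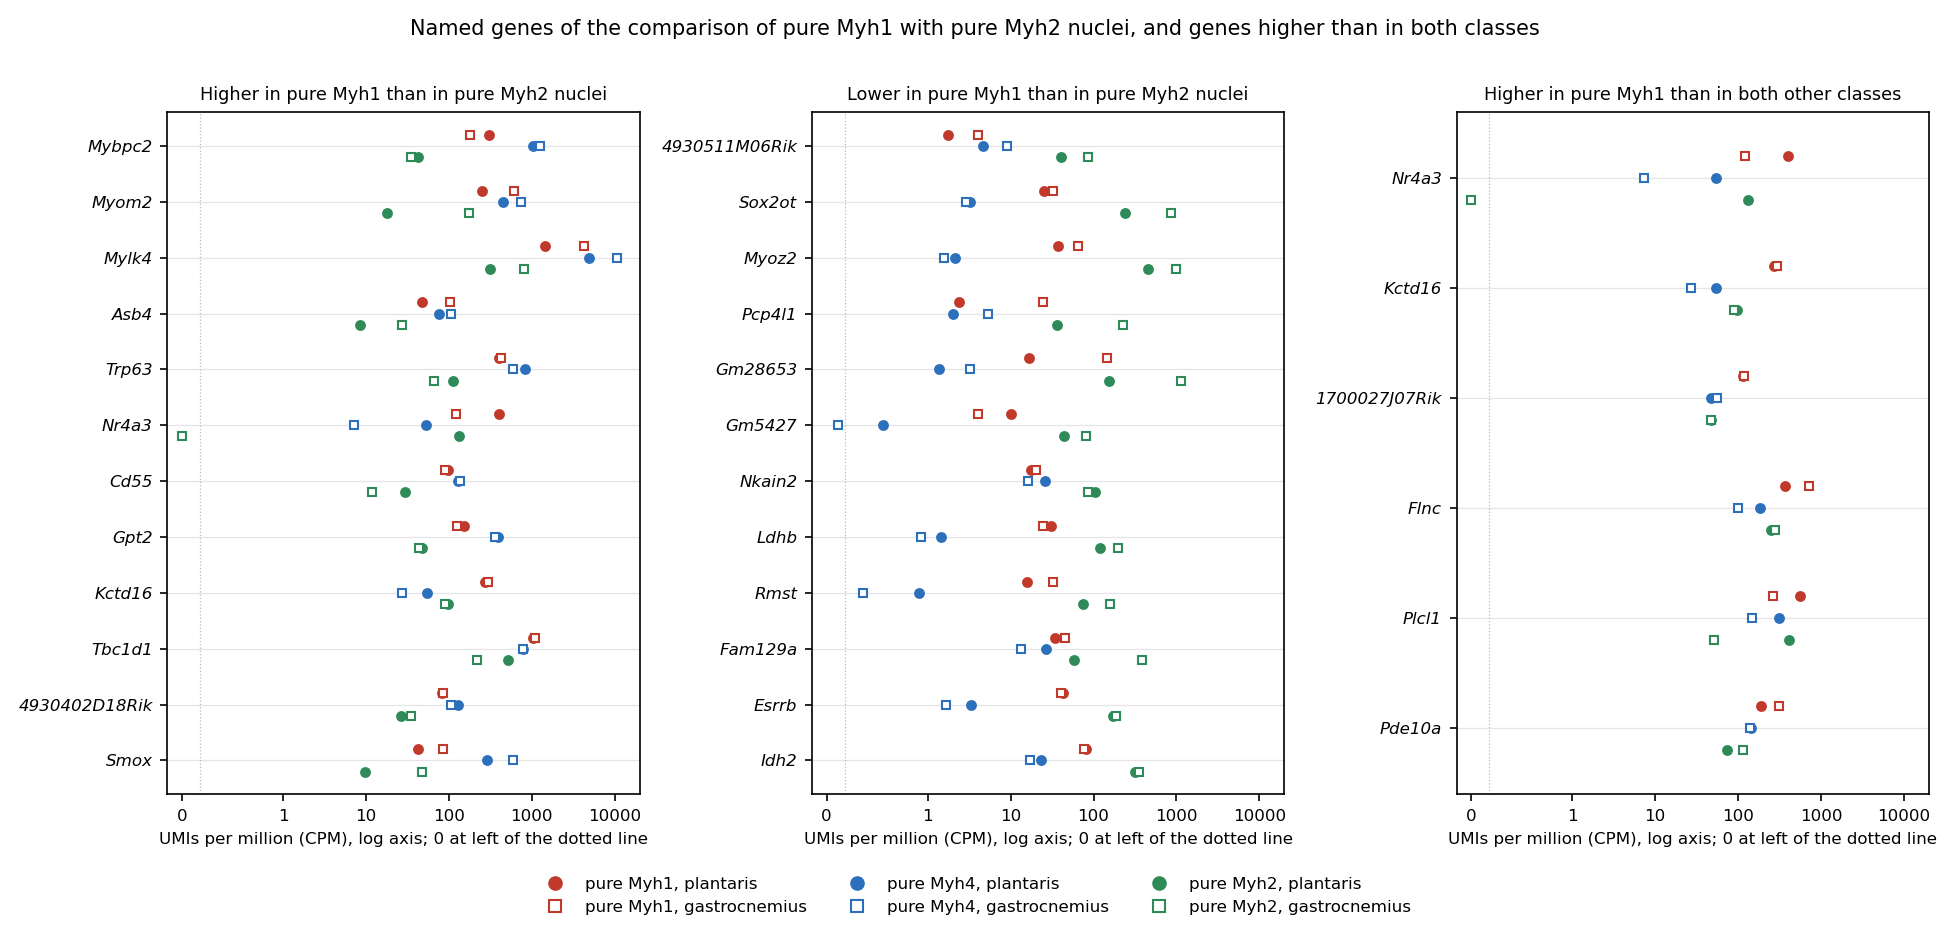
CPM (horizontal, log axis with 0 drawn at the left) of the named genes higher in pure Myh1 than in pure Myh2 nuclei, of those lower, and of the 6 higher than in both other classes. Filled points are plantaris and open points gastrocnemius. In the left panel most blue pure Myh4 points lie at or to the right of the red pure Myh1 points, Nr4a3 and Kctd16 apart. In the middle panel the green pure Myh2 points lie farthest right.

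Gene lists by role were compared in the same fits. The lists were chosen with earlier results of these data known and hold genes named above, so their counts are a description without a set test. Of all genes tested, 4.11% were called higher and 3.65% lower than in pure Myh4 nuclei. Against pure Myh2 nuclei these shares were 0.618% and 0.594%. Of 16 fast sarcomere genes, edgeR called 10 lower and 0 higher than in pure Myh4 nuclei, with 12 lower and 0 higher at an unadjusted p below 0.05, and DESeq2 called 9 and 0. Their median log2 fold change was -1.22. Actn3, the fast-fibre alpha-actinin, had 71.3 CPM in plantaris and 73.3 CPM in gastrocnemius in pure Myh1 nuclei, against 677 CPM in plantaris and 839 CPM in gastrocnemius in pure Myh4 nuclei (log2 -3.35, edgeR adjusted p = 1.77e-32). Tpm1, a tropomyosin, fell by a log2 fold change of -1.65 and Myoz1, the calsarcin of fast fibres, by one of -1.8 (edgeR adjusted p = 3.07e-09 and 4.19e-11), while the light chain gene Myl1 had 889.6 CPM in plantaris and 1417 CPM in gastrocnemius in pure Myh1 nuclei, against 626 CPM in plantaris and 2564 CPM in gastrocnemius in pure Myh4 nuclei, and was not called (edgeR adjusted p = 0.672).

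Over pure Myh2 nuclei, 4 of the 16 fast sarcomere genes were higher, with a median of 0.61, among them Mybpc2, Myom2 and the Z-disc gene Myoz3 (log2 1.19, edgeR adjusted p = 0.0175, lost in 6 of 14 alternative settings). Pvalb, the calcium buffer parvalbumin of fast fibres, had 90.2 CPM in plantaris and 61.1 CPM in gastrocnemius in pure Myh1 nuclei. It had 492 CPM in plantaris and 646 CPM in gastrocnemius in pure Myh4 nuclei (log2 -2.81, edgeR adjusted p = 6.50e-24) and 19.5 CPM in plantaris and 23.5 CPM in gastrocnemius in pure Myh2 nuclei (1.99, edgeR adjusted p = 2.77e-05). Pure Myh1 nuclei were thus on the low side of one class and the high side of the other in both muscles.

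Of the 9 of 13 slow sarcomere genes with enough counts to be tested, 6 were higher than in pure Myh4 nuclei, with a median of 3.32, and 3 were lower than in pure Myh2 nuclei, with a median of -1.39. The members with a call over pure Myh4 nuclei passed the count filter partly through the classes in which they are high, and several are not confined to slow fibres. Actn2, the alpha-actinin of all fibre types, had 4466 CPM in plantaris and 5451 CPM in gastrocnemius in pure Myh1 nuclei, against 671 CPM in plantaris and 282 CPM in gastrocnemius in pure Myh4 nuclei (log2 3.42, edgeR adjusted p = 8.14e-31) and 5410 CPM in plantaris and 5395 CPM in gastrocnemius in pure Myh2 nuclei. Mybpc1, the slow isoform of myosin-binding protein C, had 3955 CPM in plantaris and 5537 CPM in gastrocnemius, against 2007 CPM in plantaris and 290.5 CPM in gastrocnemius in pure Myh4 nuclei (log2 2.42, edgeR adjusted p = 3.25e-15). Neither was called against pure Myh2 nuclei, where Actn2 had a log2 fold change of -0.08 and Mybpc1 one of 0.22.

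Myom3, an M-band protein, was higher than in pure Myh4 nuclei (log2 3.32, edgeR adjusted p = 3.86e-31) and lower than in pure Myh2 nuclei (-1.96, edgeR adjusted p = 8.02e-09). Its levels were 199.9 CPM in plantaris and 44.8 CPM in gastrocnemius in pure Myh1 nuclei, 29.7 CPM in plantaris and 1.31 CPM in gastrocnemius in pure Myh4 nuclei and 411 CPM in plantaris and 344 CPM in gastrocnemius in pure Myh2 nuclei. The ventricular and slow light chain gene Myl2 was lower than in pure Myh2 nuclei (log2 -4.86, edgeR adjusted p = 0.00187). Only 8 of 14 alternative settings gave Myl2 an adjusted p, with a call in each of the 8.

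Of 14 oxidative regulators, edgeR called 7 higher than in pure Myh4 nuclei and 0 lower, with a median of 0.83. The marker Esrrb, picked from these data, is among the 7. Ppargc1a, the coactivator PGC-1alpha of mitochondrial gene programmes, had 3751 CPM in plantaris and 3155 CPM in gastrocnemius in pure Myh1 nuclei, against 426 CPM in plantaris and 448 CPM in gastrocnemius in pure Myh4 nuclei (log2 2.89, edgeR adjusted p = 9.13e-25). Pure Myh2 nuclei held 3949 CPM in plantaris and 2123 CPM in gastrocnemius, and no difference from them was called (log2 0.23, edgeR adjusted p = 1). Esrrg, the oestrogen-related receptor gamma, had 3345 CPM in plantaris and 5056 CPM in gastrocnemius, against 869 CPM in plantaris and 472 CPM in gastrocnemius in pure Myh4 nuclei (log2 2.57, edgeR adjusted p = 1.20e-18). Its relative Esrra (log2 1.11), the coactivator Ppargc1b (1.79) and the muscle cofactor Perm1 (2.25) were called too. The list holds the marker Esrrb and the named gene Ppara, and these 2 were the members lower than in pure Myh2 nuclei. The Ppara call over pure Myh2 nuclei was lost in 4 of 14 alternative settings.

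Of 23 fatty acid uptake and oxidation genes, edgeR called 12 higher than in pure Myh4 nuclei and 0 lower, with a median of 1.25. Lpl, the lipoprotein lipase that frees fatty acids for uptake, had 544 CPM in plantaris and 338 CPM in gastrocnemius in pure Myh1 nuclei, against 87.9 CPM in plantaris and 21.04 CPM in gastrocnemius in pure Myh4 nuclei (log2 3.16, edgeR adjusted p = 1.61e-32). Fabp3, the fatty acid-binding protein of the fibre cytoplasm, had 80.8 CPM in plantaris and 122 CPM in gastrocnemius, against 9.91 CPM in plantaris and 9.04 CPM in gastrocnemius in pure Myh4 nuclei (log2 3.3, edgeR adjusted p = 3.66e-30). The acyl-CoA synthetase Acsl1 (log2 1.91), the beta-oxidation subunit Hadha (1.71) and the carnitine transferase Cpt1b (1.2) were higher as well. Over pure Myh2 nuclei the median was -0.40. The sole member called there was Lpl, which was lower than the 812 CPM in plantaris and 837 CPM in gastrocnemius of pure Myh2 nuclei (log2 -0.95, edgeR adjusted p = 0.012). This call was lost in 4 of 14 alternative settings, DESeq2 among them.

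All 4 ketone use genes were higher than in pure Myh4 nuclei. Bdh1, the mitochondrial enzyme that oxidises 3-hydroxybutyrate, had 6.49 CPM in plantaris and 24.4 CPM in gastrocnemius in pure Myh1 nuclei, against 0.927 CPM in plantaris and 0.0822 CPM in gastrocnemius in pure Myh4 nuclei (log2 4.07, edgeR adjusted p = 2.30e-07), and 83.6 CPM in plantaris and 58.6 CPM in gastrocnemius in pure Myh2 nuclei (-2.96, edgeR adjusted p = 2.43e-05). Oxct1, which activates ketone bodies for the citrate cycle, had 338 CPM in plantaris and 334 CPM in gastrocnemius, against 136 CPM in plantaris and 109 CPM in gastrocnemius in pure Myh4 nuclei (log2 1.42, edgeR adjusted p = 1.90e-07) and 552 CPM in plantaris and 856 CPM in gastrocnemius in pure Myh2 nuclei (-1.0, edgeR adjusted p = 0.0063). Both enzymes therefore lay between the classes in both muscles.

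Of 24 citrate cycle and respiratory chain genes, 9 were higher than in pure Myh4 nuclei, with a median of 0.75. Mb, the oxygen carrier myoglobin, had 34.8 CPM in plantaris and 44.8 CPM in gastrocnemius in pure Myh1 nuclei, against 5.21 CPM in plantaris and 2.14 CPM in gastrocnemius in pure Myh4 nuclei (log2 3.27, edgeR adjusted p = 2.11e-15). The citrate cycle genes Ogdh (log2 1.19) and Sdhb (1.13) were called with smaller changes. Against pure Myh2 nuclei edgeR called 0 members, with 0 at an unadjusted p below 0.05 and 0 by DESeq2, and the median was -0.21. The 11 mitochondrially encoded genes tested, whose RNA is not made in the nucleus, gave 0 calls by edgeR in either comparison, 0 at an unadjusted p below 0.05 and 0 by DESeq2.

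Of 28 glycolysis and glycogen genes, edgeR called 13 lower and 3 higher than in pure Myh4 nuclei, with a median of -0.66. Pfkfb3, which makes the activator of phosphofructokinase, had 114 CPM in plantaris and 32.6 CPM in gastrocnemius in pure Myh1 nuclei, against 777 CPM in plantaris and 736 CPM in gastrocnemius in pure Myh4 nuclei (log2 -3.32, edgeR adjusted p = 3.80e-31). Enzymes of glycogen breakdown were lower too, among them the phosphorylase Pygm (log2 -1.45), the phosphorylase kinase subunits Phka1 (-1.14), Phkb (-1.09) and Phkg1 (-0.84) and the phosphoglucomutase Pgm1 (-1.78). The glycolytic genes Aldoa (-0.77), Pkm (-0.94) and Ldha (-0.82) were lower as well, the Ldha call being lost in 8 of 14 alternative settings. Of the 3 members that rose, Gys1 and Gbe1 encode enzymes that build glycogen. Gys1, muscle glycogen synthase, had 718 CPM in plantaris and 1030 CPM in gastrocnemius in pure Myh1 nuclei, against 238 CPM in plantaris and 282 CPM in gastrocnemius in pure Myh4 nuclei (log2 1.67, edgeR adjusted p = 2.71e-10). Gbe1, the glycogen branching enzyme, had 979 CPM in plantaris and 1494 CPM in gastrocnemius, against 375 CPM in plantaris and 340.2 CPM in gastrocnemius in pure Myh4 nuclei (log2 1.71, edgeR adjusted p = 1.89e-10), and the third was Pfkfb2 (1.22), a relative of Pfkfb3 that acts at the same step. Over pure Myh2 nuclei 1 member, Pfkfb4, was higher (log2 1.53, edgeR adjusted p = 0.0263), a call lost in 9 of 14 alternative settings, with a median of 0.49.

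The lactate carriers Slc16a3 and Slc16a1 differed in direction. Slc16a3, the lactate exporter MCT4 of glycolytic fibres, had 33.6 CPM in plantaris and 24.4 CPM in gastrocnemius in pure Myh1 nuclei, against 67.5 CPM in plantaris and 66.9 CPM in gastrocnemius in pure Myh4 nuclei (log2 -1.13, edgeR adjusted p = 0.00428) and 5.57 CPM in plantaris and 3.91 CPM in gastrocnemius in pure Myh2 nuclei (2.63, edgeR adjusted p = 0.00116). Slc16a1, the carrier MCT1 associated with lactate uptake, was higher than in pure Myh4 nuclei (log2 2.0, edgeR adjusted p = 9.67e-06). Over the list, 3 of 13 tested members were higher and 2 lower than in pure Myh4 nuclei, and 1 was higher and 1, Ldhb, lower than in pure Myh2 nuclei.

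**Figure D3:**
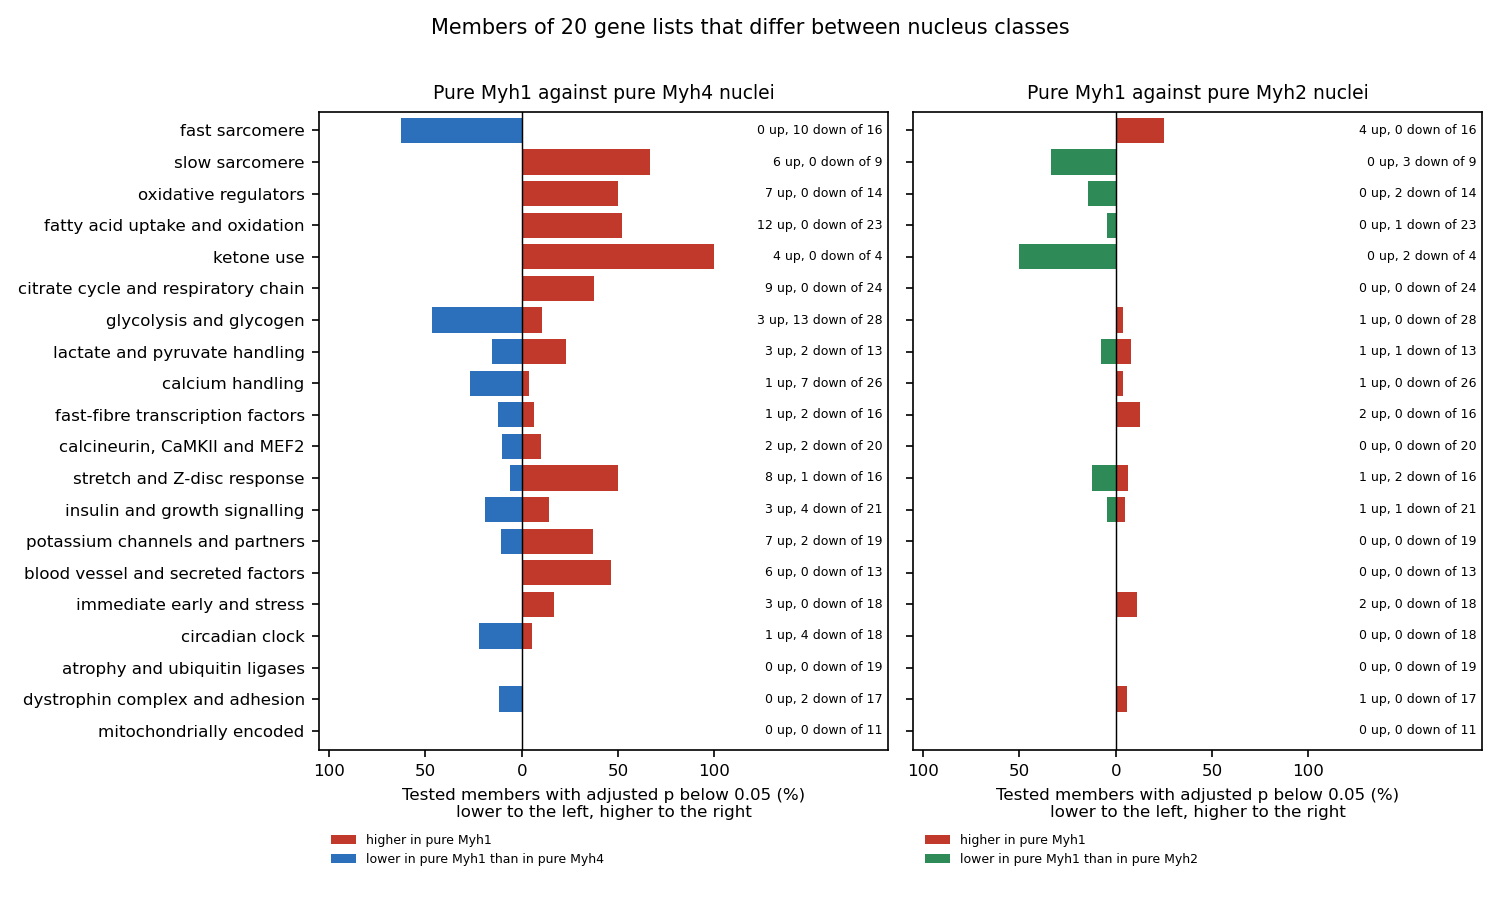
Percentage of the tested members of 20 gene lists that edgeR called lower (bars to the left) or higher (bars to the right) in pure Myh1 nuclei, against pure Myh4 nuclei on the left and pure Myh2 nuclei on the right, with the counts printed at the right of each row. The fast sarcomere and glycolysis bars point mostly left and the slow sarcomere, fatty acid and ketone bars right in the first panel, while the second panel has shorter bars, with fast sarcomere to the right and slow sarcomere and ketone use to the left.

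Calcium handling genes were lower than in pure Myh4 nuclei in 7 of 26 members and higher in 1, with a median of -0.41. Atp2a1, the calcium pump of fast sarcoplasmic reticulum, had 1700 CPM in plantaris and 1742 CPM in gastrocnemius in pure Myh1 nuclei, against 2923 CPM in plantaris and 3465 CPM in gastrocnemius in pure Myh4 nuclei (log2 -0.94, edgeR adjusted p = 0.00383). The calsequestrins that store calcium moved apart. Casq1, the fast form, was lower (log2 -1.24, edgeR adjusted p = 2.06e-05) and Casq2, the cardiac and slow form, higher (3.42, edgeR adjusted p = 0.00122). In the comparison with pure Myh2 nuclei the sole member called was Pvalb.

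Among fast-fibre transcription factors, the 2 members lower than in pure Myh4 nuclei were also the 2 members higher than in pure Myh2 nuclei. Eya4, a transcriptional coactivator of the eyes absent family, had 683 CPM in plantaris and 619 CPM in gastrocnemius in pure Myh1 nuclei, against 1545 CPM in plantaris and 1761 CPM in gastrocnemius in pure Myh4 nuclei (log2 -1.41, edgeR adjusted p = 4.81e-07) and 359 CPM in plantaris and 301 CPM in gastrocnemius in pure Myh2 nuclei (0.99, edgeR adjusted p = 0.0118). Maf, a large Maf factor that promotes the 2B programme, had 402 CPM in plantaris and 142 CPM in gastrocnemius, against 719 CPM in plantaris and 442 CPM in gastrocnemius in pure Myh4 nuclei (log2 -1.29, edgeR adjusted p = 8.94e-06) and 229.8 CPM in plantaris and 43.01 CPM in gastrocnemius in pure Myh2 nuclei (1.0, edgeR adjusted p = 0.0228). The Maf call over pure Myh2 nuclei was lost in 5 of 14 alternative settings, among them the one without junction nuclei. Vgll2, a TEAD cofactor, was higher than in pure Myh4 nuclei (log2 3.02, edgeR adjusted p = 4.85e-15). Of 19 members, 16 had enough counts to be tested, and Sox6, a repressor of slow genes, had 3174 CPM in plantaris and 3326 CPM in gastrocnemius in pure Myh1 nuclei, against 4161 CPM in plantaris and 5576 CPM in gastrocnemius in pure Myh4 nuclei, without a call (edgeR adjusted p = 0.139).

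In the calcineurin, CaMKII and MEF2 list, 2 of 20 members were higher and 2 lower than in pure Myh4 nuclei. Rcan2, a regulator of calcineurin, had 605 CPM in plantaris and 1050 CPM in gastrocnemius in pure Myh1 nuclei, against 174 CPM in plantaris and 159.9 CPM in gastrocnemius in pure Myh4 nuclei (log2 2.19, edgeR adjusted p = 6.28e-17), while the catalytic subunit gene Ppp3ca was lower (-0.75). The Ppp3ca call was lost in 5 of 14 alternative settings. The stretch and Z-disc list had 8 of 16 tested members higher and 1 lower, with a median of 1.08. Besides Ankrd2, Lmcd1, Flnc and Pdlim1, these included the LIM protein gene Fhl1, with 373 CPM in plantaris and 472 CPM in gastrocnemius in pure Myh1 nuclei, against 79.7 CPM in plantaris and 16.4 CPM in gastrocnemius in pure Myh4 nuclei (log2 3.33, edgeR adjusted p = 1.87e-35). Xirp1 (log2 3.03), a Z-disc and intercalated disc protein induced by damage, and Csrp3 (4.0), muscle LIM protein, were called as well. Against pure Myh2 nuclei 1 member, Flnc, was higher and 2 were lower. Of these, Ankrd2 was 5.36-fold lower in plantaris and 1.12-fold lower in gastrocnemius (edgeR adjusted p = 0.00121), and Pdlim1 had a log2 fold change of -1.13 (edgeR adjusted p = 0.00819). Over pure Myh2 nuclei the Ankrd2 call was lost in 4 and the Pdlim1 call in 3 of 14 alternative settings.

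Insulin and growth signalling had 3 of 21 tested members higher and 4 lower than in pure Myh4 nuclei. Tbc1d4, the Rab GTPase-activating protein AS160 that holds back glucose transporters, had 354 CPM in plantaris and 212 CPM in gastrocnemius in pure Myh1 nuclei, against 79.9 CPM in plantaris and 149 CPM in gastrocnemius in pure Myh4 nuclei (log2 1.25, edgeR adjusted p = 2.05e-05) and 729.9 CPM in plantaris and 477 CPM in gastrocnemius in pure Myh2 nuclei (-1.04, edgeR adjusted p = 0.00296). Its relative Tbc1d1, given above, was higher than in pure Myh2 nuclei, so the pair of Rab regulators differed from pure Myh2 nuclei in opposite directions. Mss51 (log2 -3.04), Igfbp5 (-2.66) and the growth inhibitor myostatin, Mstn (-1.68), were lower than in pure Myh4 nuclei. Irs2 was called higher than in pure Myh4 nuclei (log2 1.55, edgeR adjusted p = 1.31e-06), but this rests on plantaris, where it was 6.86-fold, against 0.942-fold in gastrocnemius.

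Potassium channel genes were called in 7 higher and 2 lower of 19 tested members against pure Myh4 nuclei. Kcnc1, a fast delayed rectifier, had 203 CPM in plantaris and 240.2 CPM in gastrocnemius in pure Myh1 nuclei, against 45 CPM in plantaris and 33.9 CPM in gastrocnemius in pure Myh4 nuclei (log2 2.41, edgeR adjusted p = 4.38e-20). The calcium-activated Kcnn3 (2.16) and the muscle channel Kcna7 (1.96) were higher, and the KATP subunit Abcc9 (-0.83) and the inward rectifier Kcnj12 (-0.99) lower. The Abcc9 call was lost in 4 and the Kcnj12 call in 3 of 14 alternative settings. Against pure Myh2 nuclei edgeR called 0 of the 19 tested members. At an unadjusted edgeR p below 0.05, 1 was higher and 2 lower, and DESeq2 called 0.

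Of 13 tested blood vessel and secreted factors, 6 were higher than in pure Myh4 nuclei and 0 lower, with a median of 1.62. Vegfa, the main vascular growth factor, had 1282 CPM in plantaris and 1364 CPM in gastrocnemius in pure Myh1 nuclei, against 451 CPM in plantaris and 378 CPM in gastrocnemius in pure Myh4 nuclei (log2 1.62, edgeR adjusted p = 1.81e-09). Fgf1, a fibroblast growth factor, had 601 CPM in plantaris and 346 CPM in gastrocnemius, against 108 CPM in plantaris and 55.5 CPM in gastrocnemius in pure Myh4 nuclei (log2 2.5, edgeR adjusted p = 7.46e-22). Angpt1 (log2 2.11), Vegfb (2.05), the cytokine Il15 (2.4) and Fndc5 (3.1), the precursor of irisin, completed the 6. The Fndc5 call was lost in 3 of the 11 alternative settings that gave an adjusted p. Against pure Myh2 nuclei edgeR called 0 of the 13 factors, with 2 lower at an unadjusted p below 0.05 and 0 by DESeq2.

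The remaining lists held fewer calls. Immediate early and stress genes had 3 of 18 tested members higher than in pure Myh4 nuclei, Nr4a3, the small heat shock gene Hspb7 (log2 4.24) and the co-chaperone Bag3 (1.14). Nr4a1 was higher than in pure Myh2 nuclei, with 439 CPM in plantaris and 240.2 CPM in gastrocnemius in pure Myh1 nuclei, against 234 CPM in plantaris and 58.6 CPM in gastrocnemius in pure Myh2 nuclei (log2 1.2, edgeR adjusted p = 0.00104). The Nr4a1 call was lost in 3 of 14 alternative settings. Of 18 clock genes, 4 were lower and 1 higher than in pure Myh4 nuclei, with the output factors Hlf (log2 -1.91) and Dbp (-0.98) among the lower. The dystrophin and adhesion list had 2 of 17 lower than in pure Myh4 nuclei, Dtnb (log2 -2.39) and Tln2 (-0.77). The Tln2 call was lost in 5 of 14 alternative settings. Of this list, 1 gene was higher than in pure Myh2 nuclei. That gene, Lama2, a laminin chain of the fibre's basement membrane, had 333 CPM in plantaris and 224 CPM in gastrocnemius in pure Myh1 nuclei, against 127 CPM in plantaris and 78.2 CPM in gastrocnemius in pure Myh2 nuclei (log2 1.43, edgeR adjusted p = 3.84e-05). Mesenchymal nuclei held 1915 CPM in plantaris and 3125 CPM in gastrocnemius, and the 7 mesenchymal markers summed to 131.5 CPM in plantaris and 81.42 CPM in gastrocnemius pure Myh1 nuclei, against 93.33 CPM in plantaris and 66.46 CPM in gastrocnemius pure Myh2 nuclei. Without nuclei holding 3 or more UMIs of markers of other cell types the Lama2 log2 fold change was 1.44 (edgeR adjusted p = 0.000375), and the call was lost with thinning and without junction nuclei. Of 19 atrophy and ubiquitin ligase genes tested, edgeR called 0 against pure Myh4 nuclei, with 3 higher at an unadjusted p below 0.05 and 0 by DESeq2. Among them Trim63 (MuRF1) had 1254 CPM in plantaris and 843 CPM in gastrocnemius in pure Myh1 nuclei, against 568 CPM in plantaris and 838 CPM in gastrocnemius in pure Myh4 nuclei.

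Promoters of the genes called against pure Myh4 nuclei were searched on both strands for motifs of factors named above. The oestrogen-related receptor motif TNAAGGTCA was held by 0.265% of the 377 promoters of higher genes and 0.307% of the 326 of lower genes, against 0.863% of 9383 promoters of all tested genes. The MEF2 core CTANNNNTAG was held by 5.04% of higher and 2.45% of lower genes, against 4.14% of all tested genes. The NR4A motif AAAGGTCA, which can overlap TNAAGGTCA, was held by 1.06% of higher and 2.45% of lower genes, against 1.2% of all tested genes. These windows hold 250 bases before and 50 after the start, and the matches are a description of letters.

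Within the class, plantaris pure Myh1 nuclei held more Irs1 and Irs2 RNA, and less Ankrd2 and Rbm20 RNA, than gastrocnemius pure Myh1 nuclei. With 1 library per muscle there is no test, so a gene is counted as past 2-fold where it had 20 or more UMIs in the higher muscle and its whole 95% interval lay beyond 2-fold. Of 6541 genes, 39 were higher in plantaris (0.596%) and 19 lower (0.29%), and the median log2 ratio of plantaris over gastrocnemius was 0.14. Both insulin receptor substrate genes, which pass the insulin signal to the PI3 kinase pathway, were among the 39. Irs1 had 747 CPM in plantaris and 175 CPM in gastrocnemius, a log2 ratio of 2.09 (1.66 to 2.57), beside 2.37 in pure Myh4 and 1.34 in pure Myh2 nuclei. Irs2 had 509 CPM in plantaris and 48.9 CPM in gastrocnemius, a log2 ratio of 3.38 (2.57 to 4.34), beside 0.52 in pure Myh4 and 2.97 in pure Myh2 nuclei. The Irs2 ratio of pure Myh1 nuclei was thus close to that of pure Myh2 nuclei and far from that of pure Myh4 nuclei, a difference without a test.

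Egln3, a prolyl hydroxylase of hypoxia-inducible factors, had 261 CPM in plantaris and 32.6 CPM in gastrocnemius pure Myh1 nuclei (3.0, 2.01 to 4.22). Dhrs3, a retinal reductase, gave 192 UMIs in plantaris and 3 in gastrocnemius (3.21, 1.64 to 5.5), and Gng12, a G protein gamma subunit, gave 137 UMIs in plantaris and 1 in gastrocnemius (4.31, 1.81 to 9.62). The Gng12 ratio was 0.08 in pure Myh4 nuclei. Also named as higher in plantaris were Tnfrsf19, a TNF receptor family member (2.93), Ccdc85a (2.59), the zinc finger gene Zfp385b (2.49), the chromatin factor Arid5b (2.36) and Gm13490 (2.13). With each gene's richest nucleus left out, all genes of this paragraph but Gng12 were clearly higher in plantaris in pure Myh4 nuclei too. The same direction held for all of them in pure Myh2 nuclei. Egln3 then had 35.74 CPM in plantaris and 2.138 CPM in gastrocnemius pure Myh4 nuclei. In pure Myh2 nuclei it had 369.8 CPM in plantaris and 55.37 CPM in gastrocnemius.

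Ano4, a member of the anoctamin family, gave 159 UMIs in plantaris and 1 in gastrocnemius (4.53, 2.03 to 9.84), 52 of them in 1 plantaris nucleus. With the nuclei that held 3 or more UMIs of the 10 junction markers left out, 3 UMIs remained in plantaris and 1 in gastrocnemius, a log2 ratio of -1.01. Hs6st2, a heparan sulphate sulfotransferase, gave 71 UMIs in plantaris and 0 in gastrocnemius, at least 3.43-fold higher in plantaris with a floor of 3 counts, and 8 in plantaris against 0 in gastrocnemius without those nuclei. Both differences therefore rest mainly on plantaris nuclei with junction markers, and Ano4 is itself one of these markers.

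On the lower side, Ankrd2 had 48.3 CPM in plantaris and 769 CPM in gastrocnemius, a log2 ratio of -3.99 (-4.38 to -3.61) or 15.9-fold lower in plantaris. The ratio was -1.8 in pure Myh4 and -1.74 in pure Myh2 nuclei. Ankrd2 was seen in 11.3% of plantaris and 65.3% of gastrocnemius pure Myh1 nuclei, so its level in gastrocnemius came from most nuclei and not from a few. Rbm20, which directs the splicing of titin, had 422 CPM in plantaris and 2105 CPM in gastrocnemius (-2.32, -2.48 to -2.15), beside -3.03 in pure Myh4 and -1.48 in pure Myh2 nuclei. Mylk4 had 1423 CPM in plantaris and 4226 CPM in gastrocnemius (-1.57, -1.68 to -1.46).

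Ppp1r3a, the subunit that targets protein phosphatase 1 to glycogen, had 413 CPM in plantaris and 1177 CPM in gastrocnemius (-1.51, -1.71 to -1.31), beside -1.54 in pure Myh4 and -1.08 in pure Myh2 nuclei. Fbxo40, a muscle ubiquitin ligase subunit that acts on Irs1 protein, had 235 CPM in plantaris and 753 CPM in gastrocnemius (-1.68, -1.93 to -1.42), beside -1.09 in pure Myh4 and -1.35 in pure Myh2 nuclei. Both genes were thus lower in plantaris in all 3 classes.

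Lmcd1 (-1.86), the coenzyme Q synthesis gene Coq8a (-1.72) and the RNA-binding gene Samd4 (-1.37) were lower in plantaris pure Myh1 nuclei as well, and their ratios in pure Myh4 nuclei lay above 0. Gm28653 (-3.15) and Gm29506 (-2.5) were also lower. Beyond the genes chosen by size, 5 list members passed the rule. Myom3 (2.16), Maf (1.5), the deacetylase gene Hdac9 (1.85) and Nr4a3 (1.71) were higher in plantaris, and Myom2 (-1.3) was lower.

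**Figure D4:**
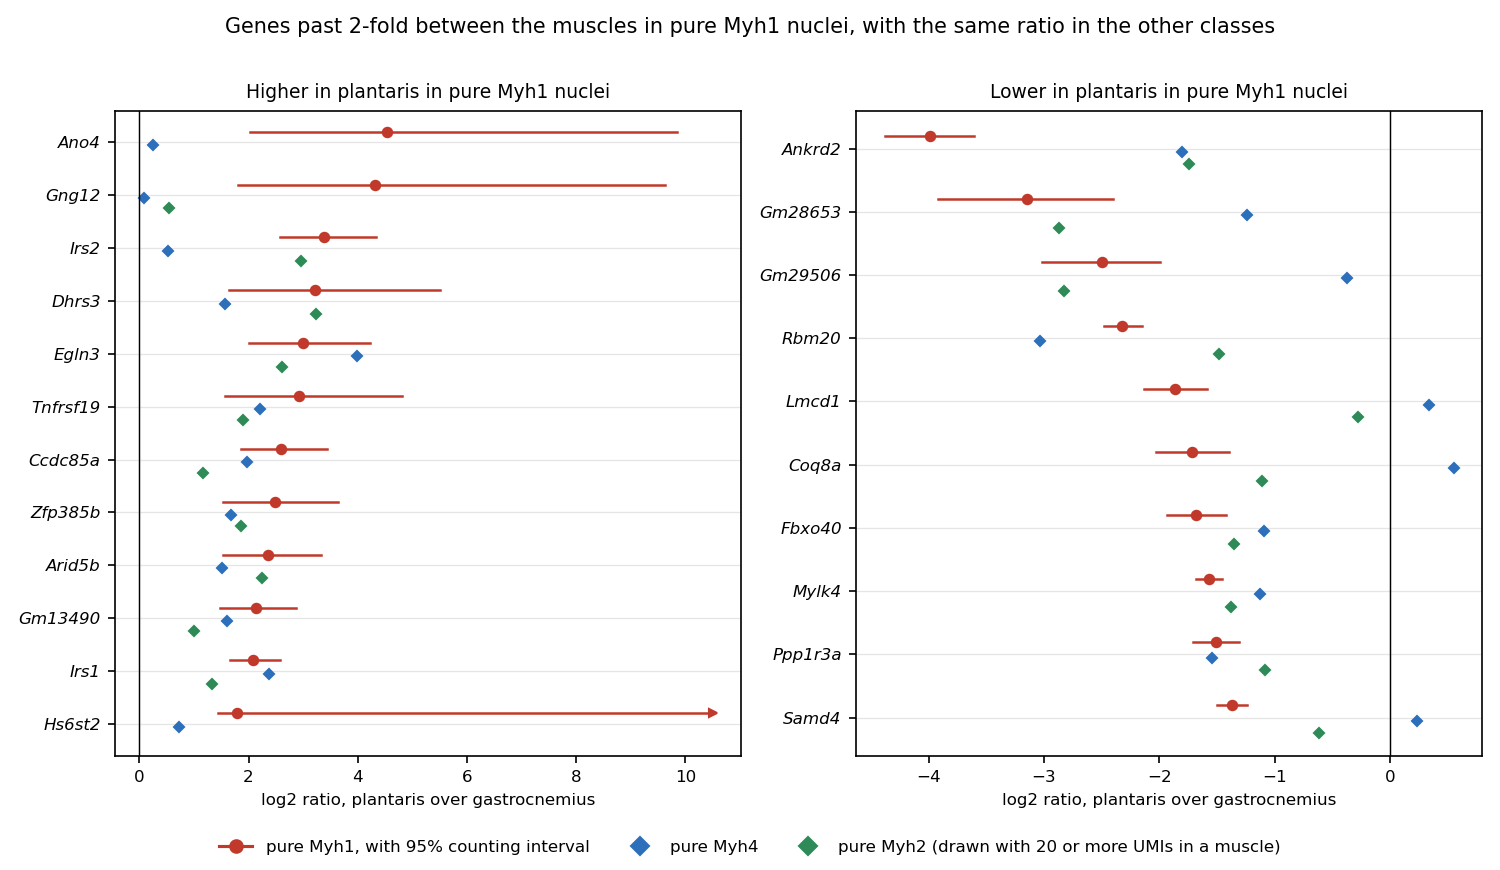
Log2 ratio of plantaris over gastrocnemius (horizontal) for the genes named as higher and those named as lower in plantaris pure Myh1 nuclei, as red points with 95% counting intervals; the arrow marks an interval with no upper end, from 0 UMIs in gastrocnemius. Diamonds give the same ratio in pure Myh4 and pure Myh2 nuclei, where the class had 20 or more UMIs in a muscle, and show Irs2 near 0 in pure Myh4 nuclei and Lmcd1, Coq8a and Samd4 on the other side of 0 there.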

How the data were processed

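Libraries were made with version 3.1 of the Chromium 3' kit, per the labels. The submitters' processing notes name Cell Ranger 6.0.1 and the build mm10. The deposited table of the authors holds raw UMI counts, all whole, of 32285 genes by 16530 nuclei, and a second deposited table gives the library of each barcode. No nucleus has under 500 UMIs. The sources used here do not say how nuclei were called or whether introns were counted. Columns that belong to no sample here numbered 0.

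No nucleus was filtered and no doublet caller was run; leaving out the deepest 5% of each class was an alternative. Counts were summed per class and library. Genes with 30 or more UMIs over the 6 sums were tested with edgeR 4.0.16 (TMM scaling, quasi-likelihood test, terms for class and library, common biological coefficient of variation 0.171) in R 4.3.3, with DESeq2 1.42.0 as an alternative. Shares have Clopper-Pearson, CPM Poisson and ratios conditional binomial intervals at 95%. Counts of 0 were set to a floor of 3 per library in ratios. Python 3.11.15, numpy 2.4.6, scipy 1.17.1, pandas 2.3.3 and matplotlib 3.10.9 were used. Gene positions came from GENCODE release M21 by gene name.

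On simulated counts for 12302 genes, the test over pure Myh4 nuclei recovered 19% of 2-fold and 80% of 4-fold changes, with 1% false among calls. Over pure Myh2 nuclei it recovered 7% and 59%, with 1.493% false. These shares describe those counts only. Whether they hold for the genes measured here was not tested.

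Named genes were the 12 of largest fold change per direction among those called, of the same direction in both muscles and with 20 or more UMIs in the higher class in each. For genes past both classes, the smaller fold change ranked them, and between muscles the interval bound nearest 0. Of each list, up to 4 members of largest value with 20 or more UMIs were named, and members whose role was needed. Some genes that these rules select are not reported here. The class rule, gene lists and markers were chosen with earlier results of these data known.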

Additional observations from a re-analysis of the deposited data

Results flagged for a closer look

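The genes Coq8a, Lmcd1 and Samd4 were singled out because the muscles differed in opposite directions in 2 nucleus classes, a difference that was not tested. The log2 ratio of plantaris over gastrocnemius for Coq8a was -1.72 in pure Myh1 nuclei and 0.55 in pure Myh4 nuclei. For Lmcd1 it was -1.86 in pure Myh1 and 0.34 in pure Myh4 nuclei. For Samd4 it was -1.37 in pure Myh1 and 0.23 in pure Myh4 nuclei. In pure Myh2 nuclei the ratios were -1.11 for Coq8a, -0.28 for Lmcd1 and -0.62 for Samd4. Leaving out nuclei with junction markers gave -1.82 for Coq8a, -1.99 for Lmcd1 and -1.36 for Samd4 in pure Myh1 nuclei.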

How the results depend on the processing

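No paired analysis was possible between the muscles because each has 1 library and the labels give no replicate number, while the fits between classes have a term for library throughout. Genes lower than in pure Myh4 nuclei numbered 449, or 187 with DESeq2, and those higher and lower than in pure Myh2 nuclei numbered 76 and 73, or 20 and 30 with DESeq2. With purity raised to 90%, the counts against pure Myh2 nuclei were 29 and 31. Requiring 20 Myh UMIs gave 318 higher and 287 lower than in pure Myh4 nuclei, 40 and 48 against pure Myh2 nuclei, and 25 genes higher in plantaris. Thinning nuclei to 1000 UMIs gave 229 and 242, 14 and 22, and 9 higher and 7 lower in plantaris. Leaving out junction nuclei gave 46 higher than in pure Myh2 nuclei. Fewer nuclei or UMIs enter the fits under purity, the Myh minimum, thinning and the junction setting. Purity, the Myh minimum and the junction setting also change which nuclei form a class. What lowered the counts in these settings, and with DESeq2, was not tested.

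The share of pure Myh1 nuclei was 3.51% in plantaris and 0.773% in gastrocnemius at 90% purity, 4.9% in plantaris at 70%, 1.59% and 0.38% with 20 Myh UMIs and 5.76% and 1.36% with 5, for plantaris and gastrocnemius. It was 0.247% in plantaris and 0.191% in gastrocnemius with thinning before the cuts. With thinning and 3 Myh UMIs, chosen after seeing the data, it was 4.93% in plantaris and 1.33% in gastrocnemius.

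Among single genes, Irs2 over pure Myh4 nuclei ranged from 2.78 with plantaris alone to -0.09 with gastrocnemius alone, ratios without a test since no residual degrees of freedom remain. Ano4 over pure Myh2 nuclei, which held 0 of its UMIs, ranged from 4.49 with plantaris alone to -1.53 with gastrocnemius alone, values set by the floor. Over pure Myh4 nuclei Ano4 was at -3.58 with 20 Myh UMIs, against 0.72. Between muscles Ano4 was at -1.72 with 20 Myh UMIs, -1.01 without junction nuclei and -0.42 without nuclei holding 3 UMIs of 7 junction genes, a setting added after seeing the data. Hs6st2 was at -1.5, -1.18 and -1.15 under the same settings and -0.04 with thinning, all set by the floor. Of the remaining values of single genes and list medians under alternatives, 3395 were counted as the same, 112 lost the threshold, 11 gained it and 189 moved. A list median was the same within the spread of the 2 muscle medians, or within the interval bounds for ratios between muscles. Medians near 0 could thus change sign, as the mitochondrially encoded median over pure Myh4 nuclei did in 7 of 14 alternatives. Of 143 calls of list members, 83 were kept in every alternative that gave an adjusted p, and 0 changed sign. Depth limits the gastrocnemius sums, which hold 245636 UMIs of 75 pure Myh1 and 255775 UMIs of 72 pure Myh2 nuclei.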

Other observations

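Some transcripts varied strongly from one pure Myh1 nucleus to the next. With the 399 plantaris nuclei thinned to 1000 UMIs each, the Fano factor, the variance of a count over its mean, was taken for 1396 genes with 50 or more thinned UMIs, and its median was 1.1. It was 2 or more for 21 genes, which were chosen after their values were seen. The nuclear RNA Malat1 had 15.9, and Ppargc1a, the coactivator of mitochondrial gene programmes, had 5.53. Ppargc1a was present in 71.4% of the thinned nuclei and reached 29 UMIs in one of them, and in gastrocnemius its Fano factor was 4.27. The giant sarcomere protein gene Ttn had 4.15, the laminin chain Lama2 2.92, Actn2 2.51, Nr4a3 2.24 and Irs1 2.02. Ebf1 had 4.02 and Rbms3 2.33, each seen in only 9.52% of the thinned plantaris nuclei. Malat1 and Ttn were abundant, with 31720 and 15109 thinned UMIs in plantaris, and the part of abundance in their values was not tested. In these sparse counts each value describes spread among nuclei of 1 library, and the part of free RNA or of doublets in it was not tested.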
